A study of Homo sapiens with 4 samples.

Results

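The data described here are the levels of 9 genes of the TGF-beta and BMP pathway, namely the ligands TGFB1 and TGFB2, the SMAD feedback genes SMAD6, SMAD7 and SKIL, and the targets TGFBI, ID1, ID2 and ID3. They were chosen by name for their place in the pathway, not by a cutoff on a measured value, but earlier results of these data were known. They are 9 of the 19775 genes read on the arrays. RNA was profiled from 2 established human hepatocellular carcinoma (HCC) lines, Huh7 and Hep3B, on Affymetrix Human Genome U133 Plus 2.0 arrays. Per line, cells treated with 3 μM arsenic trioxide (ATO) for 7 days were compared with negative control cells given DMSO. There was 1 profile per condition and line, 4 in all, so no value below has a replicate within a line, and the number of arrays limits the precision. The comparison asked which genes ATO shifts in HCC cells.

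TGF-beta and the bone morphogenetic proteins (BMPs) are secreted proteins that bind paired receptor kinases. TGF-beta receptors mainly activate SMAD2 and SMAD3, BMP receptors mainly activate SMAD1, SMAD5 and SMAD9, and both groups enter the nucleus with SMAD4. SMAD6, SMAD7 and SKIL are transcribed in response and damp the signal, SMAD6 mostly the BMP branch, SMAD7 both branches, and SKIL as a repressor bound to the SMADs. ID1, ID2 and ID3 are helix-loop-helix proteins without a DNA-binding region that hold back basic helix-loop-helix factors, and ID1 and ID3 are among the best-known BMP targets. In the liver the pathway restrains hepatocyte growth, drives fibrosis through stellate cells, and sets hepcidin through BMP signaling.

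The upstream sequence of 5 of the genes is shown because the results turn on them, as the SMAD feedback genes and the pair of ID genes with the highest ratios in Hep3B. Each is the 250 bases before the outermost RefSeq start, 5′ to 3′ on the gene's strand, from RefSeq on build GRCh38.p14. All 9 genes matched the promoter table. SMAD7 has 3 starts there, and the windows before its other starts were not searched for the gene, while each other gene has 1. Capitals mark CAGAC (or GTCTG on the other strand), a common SMAD-binding core, GTCTAGAC, the palindromic SMAD site, and GGCGCC, a GC-rich site bound by SMADs. GTCTAGAC and GGCGCC read the same on both strands, and none of the matches overlapped. SMAD6 lies on chromosome 15 (chr15:66701986-66702235, plus strand), SMAD7 on chromosome 18 (chr18:48950966-48951215, minus strand), SKIL on chromosome 3 (chr3:170357465-170357714, plus strand), ID1 on chromosome 20 (chr20:31605039-31605288, plus strand) and ID3 on chromosome 1 (chr1:23559502-23559751, minus strand).
SMAD6: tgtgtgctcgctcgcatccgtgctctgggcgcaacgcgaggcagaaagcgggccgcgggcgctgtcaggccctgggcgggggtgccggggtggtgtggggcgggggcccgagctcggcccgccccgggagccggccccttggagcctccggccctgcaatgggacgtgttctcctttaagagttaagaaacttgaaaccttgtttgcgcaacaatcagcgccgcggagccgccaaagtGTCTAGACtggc
SMAD7: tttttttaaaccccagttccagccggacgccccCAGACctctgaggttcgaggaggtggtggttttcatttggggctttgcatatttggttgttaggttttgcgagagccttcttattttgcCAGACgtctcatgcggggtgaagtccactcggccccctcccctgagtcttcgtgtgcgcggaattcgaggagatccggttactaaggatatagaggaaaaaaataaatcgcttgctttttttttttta
SKIL: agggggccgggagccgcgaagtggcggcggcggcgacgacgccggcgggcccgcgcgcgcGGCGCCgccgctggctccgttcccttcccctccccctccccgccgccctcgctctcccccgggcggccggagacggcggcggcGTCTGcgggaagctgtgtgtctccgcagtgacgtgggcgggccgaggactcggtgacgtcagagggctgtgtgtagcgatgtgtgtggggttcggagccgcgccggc
ID1: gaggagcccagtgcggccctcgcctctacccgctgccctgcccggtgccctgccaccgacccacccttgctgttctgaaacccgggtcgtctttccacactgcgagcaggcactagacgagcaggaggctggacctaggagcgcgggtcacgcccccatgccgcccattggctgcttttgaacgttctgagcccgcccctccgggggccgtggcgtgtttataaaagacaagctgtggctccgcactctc
ID3: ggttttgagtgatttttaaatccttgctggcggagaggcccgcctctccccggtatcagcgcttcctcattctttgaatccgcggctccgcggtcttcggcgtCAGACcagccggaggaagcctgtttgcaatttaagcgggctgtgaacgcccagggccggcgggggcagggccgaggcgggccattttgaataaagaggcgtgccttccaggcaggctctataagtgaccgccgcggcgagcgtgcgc

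The SMAD6 window held the palindrome GTCTAGAC between 12 and 5 bases before the start, a match found in 0.182% of the 35116 promoter windows of this length. CAGAC was found in 4 of the 9 genes, at 2 places in SMAD7 and in TGFB2 and at 1 place in SKIL and ID3, against 38% of all windows. GGCGCC was found in SKIL and TGFBI, against 16.4% of all windows. The windows of ID1, ID2 and TGFB1 held none of these letters, and sequence further upstream was not searched for any gene. These are matches of letters, and binding was not measured.

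Before the results, the cell type was checked against marker genes. All 8 measured genes of a list of 10 hepatocyte markers were above the median probe set (15.99) in every profile, but ALB (albumin), AFP (alpha-fetoprotein) and TTR (transthyretin) were far lower in the profiles labelled Huh7 than in those labelled Hep3B. ALB was 155 and 358 in the negative control and ATO profile of Huh7 and 12803 and 10730 in those of Hep3B. AFP was 91.8 and 62.1 in Huh7 and 3567 and 1646 in Hep3B. Huh7 cells are known to make albumin and AFP, so these levels go against the label, and Huh7 and Hep3B below mean the profiles labelled so. The summed hepatocyte markers were 25782 and 22204 in Huh7 and 50665 and 37301 in Hep3B. These sums were lower with ATO but were carried by a few abundant genes, and ALB in Huh7 and TTR (1704 and 1983) and FGB (fibrinogen beta chain, 210 and 590) in Hep3B were higher with ATO. Of 4 blood cell markers, 2 were above the median in every profile, with sums of 456 and 276 in Huh7 and 220 and 75.9 in Hep3B. LYZ (lysozyme) was 411 and 234 in Huh7 and 176 and 30.3 in Hep3B, while PTPRC, which defines white blood cells, stayed between 6.15 and 8.87. Of 6 fibroblast or stellate cell markers, 2 were above the median, with sums between 136 and 156, and of 4 endothelial markers, 1 was, with sums between 35.6 and 40.0. The 24 probe sets for spiked poly-A controls had a mean log2 difference, ATO minus negative control, of -0.28 (Huh7) and -0.30 (Hep3B), while that of the 18 hybridization control sets was 0.07 and 0.06. The part of these differences in the ratios below was not tested.

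With ATO, 7 of the 9 genes were above the negative control in both lines, none was below it in both lines, and SKIL and ID2 lay on opposite sides. This counts a shift of any size in the brightest probe set, and TGFB1 was at 1.03 in both lines. A second ID2 set was below 1 in both lines (0.920 in Huh7 and 0.705 in Hep3B), and another SMAD6 set was 0.905 in Huh7. In all genes, 32.0% were higher in both lines and 24.7% lower in both. The median log2 ratio of the 9 genes was 0.45 in Huh7 and 0.28 in Hep3B, beside 0.01 and 0.04 over all genes. The 19 other pathway targets measured, described below, had similar medians of 0.47 and 0.24. The ratios of the study's threshold, above 1.5 or below 0.67, were passed in 1 line at a time. In Huh7, TGFB2, TGFBI and SMAD7 were above 1.5, as were 3.21% of all genes, and none was below 0.67, as were 3.25%. In Hep3B, ID1 and ID3 were above 1.5, as were 5.04% of all genes, and SKIL was below 0.67, as were 4.02%. No member was past a threshold in the same direction in both lines, where 0.804% of all genes were above 1.5 and 0.587% below 0.67.

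**Figure D1:**
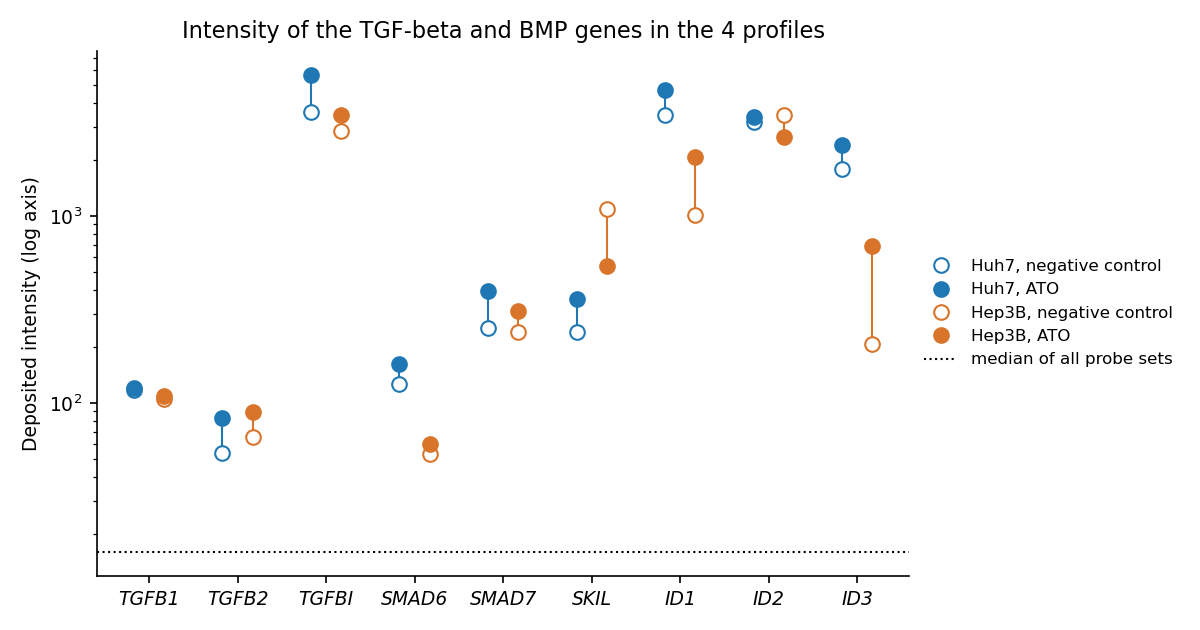
Deposited intensity of each gene (y axis, log scale) in the negative control (open circles) and ATO (filled circles) profile of Huh7 (blue) and Hep3B (orange), 1 profile per circle, read from the brightest probe set. Every profile of the 9 genes lies above the median of all probe sets (dotted line), and SKIL is the gene whose ATO profile lies above its control in Huh7 and clearly below it in Hep3B.

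Across the lines, limma, fitted with 1 residual degree of freedom, gave no gene of the 9 and no gene of all (0%) an adjusted p under 0.05. The lowest adjusted p among the 9 was 0.506, which was also the lowest over all genes. At an unadjusted p under 0.05, 4 of the 9 genes were higher, namely TGFB2, TGFBI, SMAD7 and ID1, against 5.24% of all genes. A ratio within 1 line has no test. RNA came from whole cultures, so a shift in every cell and a shift in the share of cells that express a gene cannot be told apart.

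TGFB1 and TGFB2 encode secreted ligands of the TGF-beta receptors. TGFB1 had an intensity of 118 in the negative control and 121 with ATO in Huh7, and of 105 and 109 in Hep3B. The 4 profiles lay close together, with ratios of 1.03 in both lines. With each profile centred on its median, the Huh7 ratio was 0.998, on the other side of 1. The dimmer of its probe sets had ratios of 1.14 and 1.01.

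TGFB2 had an intensity of 54.1 in the negative control and 83.0 with ATO in Huh7, and of 65.6 and 88.9 in Hep3B. Both ATO profiles lay above both controls. The ratios were 1.53 in Huh7 and 1.36 in Hep3B, with a mean log2 of 0.53 ± 0.13 (SD, n = 2 lines). Its adjusted p from limma was 0.506. Its 5 probe sets differed in brightness, and 3 of them had means below the median probe set. The other set above the median had ratios of 1.24 and 1.11. Of the dim sets, 2 were higher in both lines, and the dimmest, at 4.31 and 3.87 in Huh7, had ratios of 0.899 and 1.14. The Huh7 ratio was under the threshold with the mean of all probe sets (1.23), with profiles centred on their medians (1.49) and with 16 added before the ratio (1.41).

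SMAD6, SMAD7 and SKIL form the feedback arm. SMAD7, the inhibitory SMAD that recruits ubiquitin ligases to the receptors, had an intensity of 250 in the negative control and 394 with ATO in Huh7, and of 240 and 309 in Hep3B. The controls of the lines were close, and both ATO profiles lay above both. The ratios were 1.57 and 1.29, with a mean log2 of 0.51 ± 0.21 (SD, n = 2 lines), from the only probe set of the gene. Its adjusted p from limma was 0.506.

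SMAD6, the inhibitory SMAD of the BMP branch, had an intensity of 126 in the negative control and 162 with ATO in Huh7, and of 53.4 and 60.0 in Hep3B. The Huh7 profiles were both above the Hep3B profiles, and the ATO ratios were 1.28 and 1.12, with a limma adjusted p of 0.558. Its 4 probe sets did not move alike. Of the 3 above the median, 2 were higher in Huh7 and 3 in Hep3B, and the exception had a ratio of 0.905 in Huh7.

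SKIL, which encodes the SMAD corepressor SnoN, was the one gene of the 9 past the lower threshold. Its intensity was 240 in the negative control and 358 with ATO in Huh7, but 1084 in the negative control and 538 with ATO in Hep3B. The Hep3B control was thus the highest of the 4 profiles and the Huh7 control the lowest. The ratio was 1.49 in Huh7, just under the threshold of 1.5, and 0.496 in Hep3B. The mean log2 ratio was -0.22 ± 1.12 (SD, n = 2 lines), with a limma adjusted p of 0.944. The next brightest probe set gave the same picture, with 71.3 and 117 in Huh7 and 380 and 163 in Hep3B, ratios of 1.64 and 0.430. The other 3 probe sets were below the median, and the dimmest, near 5 in every profile, had ratios of 0.964 and 1.09. A ratio below 0.67 in Hep3B with one above 1 in Huh7 was found in 1.20% of all genes. The difference between the lines' ratios cannot be tested with 1 profile per condition and line.

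**Figure D2:**
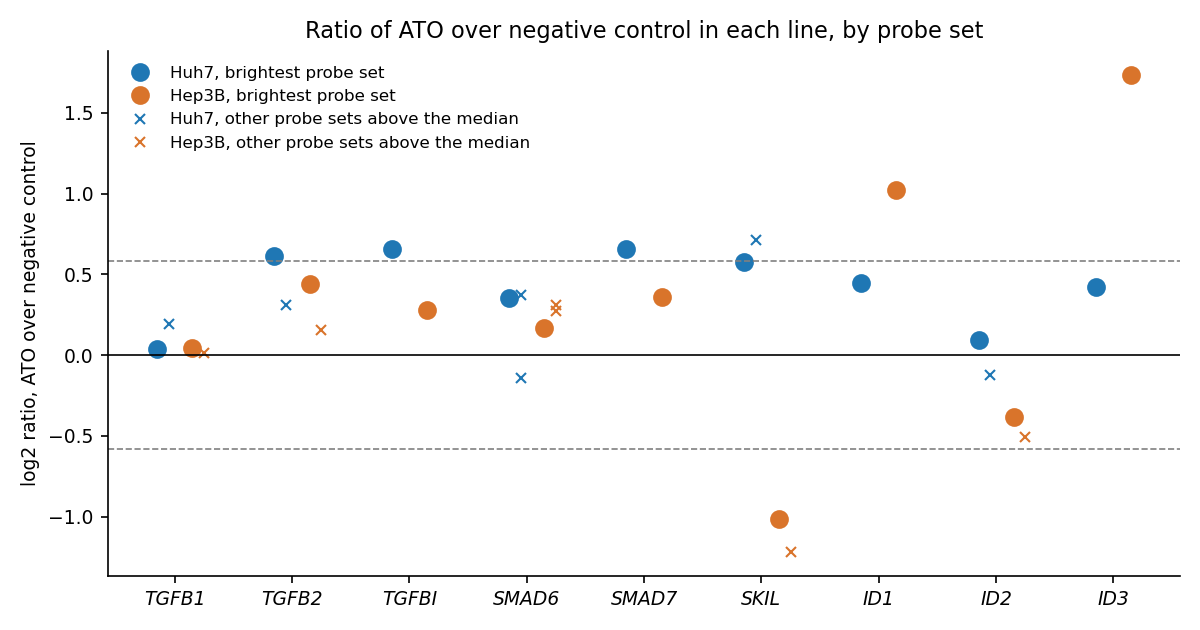
ATO over negative control as a log2 ratio (y axis) for each gene in Huh7 (blue) and Hep3B (orange), with circles for the brightest probe set and crosses for the gene's other probe sets above the median. Dashed lines mark ratios of 1.5 and 0.67. Both bright SKIL probe sets lie above 0 in Huh7 and below the lower line in Hep3B, and ID3 has the highest ratio, 3.33 in Hep3B.

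Among the targets, TGFBI, a secreted matrix protein named for its induction by TGF-beta, had an intensity of 3604 in the negative control and 5691 with ATO in Huh7, and of 2855 and 3460 in Hep3B. Huh7 with ATO was the highest profile, and Hep3B with ATO lay just below the Huh7 control. The ratios were 1.58 and 1.21, with a mean log2 of 0.47 ± 0.27 (SD, n = 2 lines). Its adjusted p from limma was 0.509.

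ID1, which holds back basic helix-loop-helix factors, had an intensity of 3465 in the negative control and 4730 with ATO in Huh7, and of 1013 and 2054 in Hep3B. Every Huh7 profile was above every Hep3B profile, and within each line the ATO profile was the higher. The ratios were 1.36 in Huh7 and 2.03 in Hep3B, with a mean log2 of 0.73 ± 0.40 (SD, n = 2 lines). Its adjusted p from limma was 0.506.

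ID3, a close relative of ID1, had an intensity of 1788 in the negative control and 2400 with ATO in Huh7, and of 207 and 691 in Hep3B. The order of the 4 profiles was that of ID1. The ratios were 1.34 and 3.33, and the latter was the highest of the 9 genes in either line. The mean over the lines was a log2 of 1.08 ± 0.93 (SD, n = 2 lines), with an adjusted p of 0.555 from limma, the SD being nearly as large as the mean. ID1 and ID3 are each read by a single probe set.

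ID2, the family member that in many cells is induced by BMPs and also binds RB, went another way. It had an intensity of 3169 in the negative control and 3380 with ATO in Huh7, and of 3441 and 2636 in Hep3B. Hep3B with ATO was the lowest profile, and the other 3 lay close together. The ratios were 1.07 and 0.766, and the limma adjusted p was 0.850. A second probe set, also open to cross-hybridization, had ratios of 0.920 and 0.705, and the mean of both sets gave 0.991 in Huh7, so ID2 had no clear direction in that line.

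The profiles labelled Huh7 and Hep3B, a label in doubt as given above, differed in 3 of the 9 genes by limma, where 24.3% of all genes differed at an adjusted p under 0.05. This compares the 2 profiles of each line, of which 1 was treated. SMAD6, ID1 and ID3 were higher in Huh7 than in Hep3B by a log2 of 1.13 ± 0.08 (SE, adjusted p = 0.0175), 1.48 ± 0.18 (adjusted p = 0.0298) and 2.39 ± 0.38 (adjusted p = 0.0433), all from limma on log2(intensity + 16). With an offset of 64, and with the cell line alone in the model, SMAD6 was the only one of the 3 still called, and with the mean of all probe sets ID1 was. SKIL was lower in Huh7 by -1.33 ± 0.46 on this scale, without passing (adjusted p = 0.165), and it passed with an offset of 1 (adjusted p = 0.0292), with dim genes left out (0.0227) and with an intensity trend in the prior (0.0164). TGFBI, higher in Huh7 by 0.52 ± 0.13 (adjusted p = 0.0928 by limma), also passed with dim genes left out (adjusted p = 0.0349) and with the trend (0.0282).

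In the negative controls, ID3 was 8.62 times and ID1 3.42 times as high in Huh7 as in Hep3B, and with ATO they were 3.48 and 2.30 times as high. SKIL was 4.52 times as high in the Hep3B control as in the Huh7 control, and 1.5 times as high with ATO. SMAD6 was 2.37 times as high in the Huh7 control and 2.69 times with ATO. This gap rests on its brightest probe set. Its other sets above the median were 34.4 and 17.4 in the Huh7 control and 30.1 and 15.6 in the Hep3B control. Thus 3 of the 4 genes that were over 2-fold apart between the control profiles were closer with ATO, near the share over all genes that far apart, 69.2% of 3553. Over any distance, 5 of the 9 genes were closer with ATO, beside 51.8% of all genes. Both shares are near those of all genes, so they are no result about the 9 genes.

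**Figure D3:**
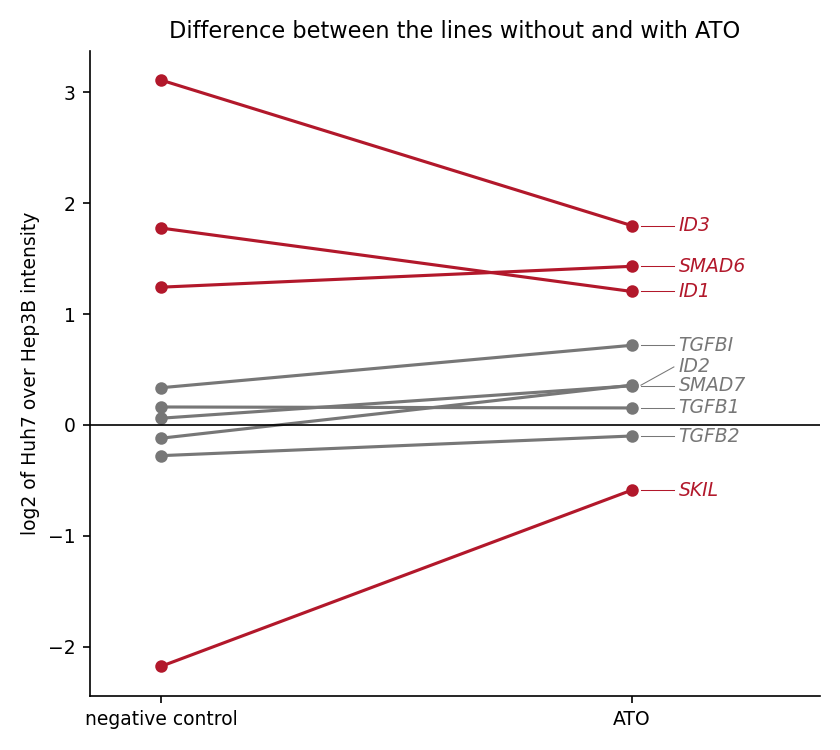
Log2 of the Huh7 over the Hep3B intensity (y axis) in the negative control and with ATO, 1 line per gene, red where the controls were over 2-fold apart. ID3, ID1 and SKIL move toward 0 with ATO, and SMAD6 does not.

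The wider pathway was read from a list of 94 other genes, 88 of which had a value here; the other 6 were not analysed here. Of these, 26 were higher with ATO in both lines, 24 lower in both and 38 differed in direction. The shares of 29.5% higher and 27.3% lower in both were near the 32.0% and 24.7% of all genes. Their median log2 ratio was 0.06 in Huh7 and -0.03 in Hep3B. ATOH8, CDKN1A and THBS1 were above 1.5 in both lines (3.41% of the list, beside 0.804% of all genes), and FST and TGFBR1 were below 0.67 in both (2.27%, beside 0.587%). With a gene's probe sets averaged, THBS1 and TGFBR1 no longer passed. None of the 88 had an adjusted p under 0.05 from limma. In Hep3B, 10 of the 88 were below 0.67 (11.4%, beside 4.02% of all genes) and 9 above 1.5 (10.2%, beside 5.04%). In Huh7, 3 were below 0.67 (3.41%, beside 3.25%) and 13 above 1.5 (14.8%, beside 3.21%).

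Among the other ligands, BMP2, at 27.1 in the negative control and 47.0 with ATO in Huh7 and 160 and 238 in Hep3B, had ratios of 1.74 and 1.48. GDF15, a stress-induced cytokine, had ratios of 1.70 and 1.47 on a probe set open to cross-hybridization, and BMP4, named here after its values were seen, had ratios of 1.55 and 1.47. None of the 17 measured ligands passed a threshold in both lines. BMP2, GDF15 and BMP4 were the only 3 higher with ATO in both lines (17.6%, beside 32.0% of all genes). Another 6 were lower in both (35.3%, beside 24.7%). The median log2 ratio of the 17 was -0.11 in Huh7 and -0.08 in Hep3B. THBS1 is a matrix protein that can free TGF-beta from its latent complex. It was 16.6 in the negative control and 42.2 with ATO in Huh7 and 295 and 529 in Hep3B. Its ratios were 2.54 and 1.80, and its Huh7 control lay just above the median probe set (15.99). LTBP4, which binds latent TGF-beta, had ratios of 1.37 and 1.13 on the same kind of probe set as GDF15.

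Of 13 measured receptors, 3 were below 0.67 in Hep3B (beside 4.02% of all genes) and 1 in Huh7 (beside 3.25%). TGFBR1, the signaling type I receptor of TGF-beta, was 355 in the negative control and 231 with ATO in Huh7 and 615 and 341 in Hep3B, with ratios of 0.650 and 0.554. TGFBR3, the co-receptor betaglycan, was 1465 and 1237 in Huh7 and 40.6 and 11.2 in Hep3B, the last below the median probe set, with ratios of 0.844 and 0.275. Of the SMADs, none passed in both lines. SMAD4, the shared partner, had ratios of 0.845 and 0.525, and SMAD1, a BMP SMAD, 1.12 and 1.48.

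Among the inhibitors, FST (follistatin), a secreted trap for activins and some BMPs, was 2330 in the negative control and 1210 with ATO in Huh7 and 276 and 126 in Hep3B, with ratios of 0.519 and 0.457. The ATO profile was the lower in each line, and the mean log2 ratio was -1.04 ± 0.13 (SD, n = 2 lines). CER1, another secreted antagonist, had ratios of 0.811 and 3.27, the former from values below the median. SKI, the closest relative of SKIL, and SMURF2, a ubiquitin ligase for SMADs and their receptors, were named after their values were seen. SKI had ratios of 1.10 and 0.702 and SMURF2 0.980 and 0.661. Over the 19 measured inhibitors, the median log2 ratio was -0.03 in Huh7 and -0.09 in Hep3B.

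Targets held the highest ratio of the wider list in each line, CCN1 in Huh7 and TAGLN in Hep3B. CCN1, named after its values were seen, had ratios of 2.84 and 1.48. Of the 19 measured targets, 10 were higher with ATO in both lines (52.6%, beside 32.0% of all genes). A further 4 were lower in both (21.1%, beside 24.7%) and 5 differed in direction. Their median log2 ratio was 0.47 in Huh7 and 0.24 in Hep3B, near that of the 9 genes. ATOH8, a helix-loop-helix factor induced by BMPs in liver cells, was 61.1 in the negative control and 142 with ATO in Huh7 and 27.7 and 72.9 in Hep3B. Both ATO profiles were above both controls, with ratios of 2.33 and 2.63 and with a mean log2 of 1.31 ± 0.12 (SD, n = 2 lines). CDKN1A, the cell cycle inhibitor p21, had ratios of 1.57 and 2.24. TAGLN, a smooth muscle actin-binding protein, was 32.1 and 25.5 in Huh7 and 47.6 and 625 in Hep3B, with ratios of 0.795 and 13.1. ID4, the remaining ID gene, named after its values were seen, was 465 and 503 in Huh7 and 85.5 and 192 in Hep3B, with ratios of 1.08 and 2.25. Like ID1 and ID3, it was higher in Huh7 than in Hep3B in every pairing of profiles, and its ratio was above 1.5 in Hep3B and not in Huh7. Of the basic helix-loop-helix partners that ID proteins bind, TCF4, whose Hep3B intensities were below the median, had ratios of 1.23 and 1.80, TCF12 0.950 and 0.736, and TCF3 was not past a threshold in either line.

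**Figure D4:**
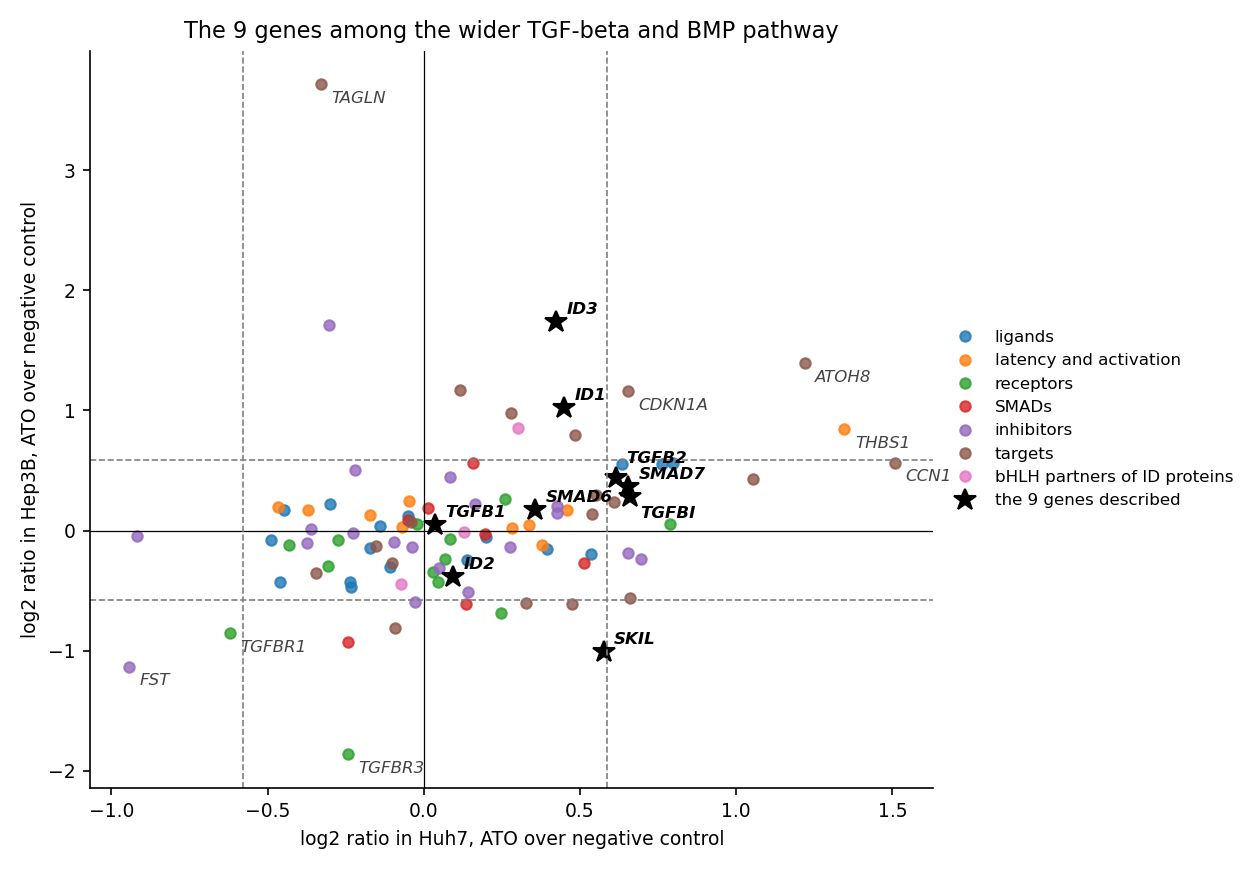
ATO over negative control as a log2 ratio, Huh7 along x and Hep3B along y, for the 88 measured genes of the wider pathway, coloured by role, and the 9 genes described (stars). Dashed lines mark ratios of 1.5 and 0.67. None of the stars lies past both lines in the same direction, where ATOH8, CDKN1A and THBS1 (above) and FST and TGFBR1 (below) do.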

How the data were processed

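Each deposited value is a linear intensity of 1 probe set. The authors used simpleaffy for Robust Multi-array Average preprocessing, log transformation and quartile normalization. How values returned to the linear scale, and if arrays were averaged, is not given in the sources used here. No detection call was used. Of 54675 probe sets, 41097 had 1 gene symbol in the platform annotation, 1801 several and 11777 none. Each of 19775 genes was read from its brightest probe set with 1 symbol. The 9 genes had 22 such probe sets, and 1 more, naming ID2 with another gene, was not used. Ratios (ATO divided by negative control) were formed separately for Huh7 and Hep3B. limma 3.58.1 (R 4.3.3, the package data.table, version 1.17.8) was fitted to log2(intensity + 16) over all genes with cell line and treatment in the model, with Benjamini-Hochberg adjustment at 0.05. The lines pair the profiles, since the control and ATO profile of a line share their cells of origin. The steps were run on simulated data, where the check was that the mean estimated change was near the change put in. That check does not show that limma with 1 residual degree of freedom would call such a change.

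The members and lists were chosen with earlier results of these data known. Of the wider list, genes were named if past a threshold in both lines or among the 2 of a role whose mean log2 ratio was furthest from 0. Genes with the most similar pattern were to be named for members past a threshold in both lines, and there was none. The alternatives were other offsets, the mean of probe sets, dim genes left out, no cross-hybridizing (_x_at) probe sets, quantile normalization, centring, stricter thresholds, 1 line alone, an intensity trend in the prior, and 1 term in the model.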

Additional observations from a re-analysis of the deposited data

Results flagged for a closer look

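SKIL and ID2 had ratios of ATO over negative control on opposite sides of 1 in the 2 lines. The SKIL ratio was 1.49 in Huh7 but 0.496 in Hep3B. The ID2 ratio was 1.07 in Huh7 but 0.766 in Hep3B. The difference between the lines was not tested, since each ratio rests on 1 profile per condition. For ID2 the second probe set was below 1 in both lines.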

How the results depend on the processing

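No member passed a threshold in both lines under the alternatives run for both lines. Taken in 1 line alone, 3 members were above 1.5 in Huh7, and 2 were above 1.5 and 1 below 0.67 in Hep3B. For the wider list, 13 genes were above and 3 below in Huh7 alone (3.21% and 3.25% of all genes), and 9 above and 10 below in Hep3B alone (5.04% and 4.02%), and with thresholds of 2 and 0.5 there was 1 above (ATOH8) and 0 below. With the mean of all probe sets 1 was below (FST), as TGFBR1 no longer passed, and CCN1 passed in place of THBS1. limma called 3 of all genes for ATO with dim genes left out and 9 with an intensity trend in the prior, none of them a member. Without the replicate block, that is with treatment alone in the model, it called 0. The lowest adjusted p of a member ran from 0.294 with the trend to 0.999972 without the block. Between the lines, the main setting called 4806 of all genes and 3 members. An offset of 64 called 2518 of all genes and 1 member. The mean of probe sets called 4160 and 1, and the cell line alone in the model 4341 and 1. An offset of 1 called 6258 and 4 (SKIL added). With dim genes left out 6039 and 5 were called, and with the trend 6288 and 5 (SKIL and TGFBI added). Calls over all genes thus also rose in the settings where more members were called. Of 108 member ratios recomputed under a setting, 105 stayed within 1.5 times and on their side of the thresholds, and the other 3 were TGFB2 in Huh7. Of 26 ratios from other probe sets of a member, 15 stayed so, 9 moved and 2 called ratios reversed, both in sets below the median, TGFB2 in Huh7 at 0.899 and SKIL in Hep3B at 1.09. In all, 6 of the 26 changed direction, the others being SMAD6 in Huh7 at 0.724 and 0.905, SKIL in Huh7 at 0.964 and ID2 in Huh7 at 0.920. The cause was not tested. Signal over background was not measured here, as no detection call was used.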
